A study of Mus musculus with 16 samples.

Results

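The comparison set RNA-seq libraries of cerebral cortex from Fmr1 knockout mice against those of wild type (WT) mice. Membership was read from the library titles, which name 2 RNA libraries of the Fmr1 knockout and 2 of WT, 4 of the 16 libraries in the series. The other 12 are RNA libraries of a Cpeb1 knockout and of a double knockout lacking both genes, and ribosome footprint libraries of all 4 genotypes. All animals were on the FVB.129P2-Pde6b+ Tyr c-ch/AntJ background and were taken at postnatal day 28 to 35. Both cortical hemispheres were homogenized, cleared at low speed, and the cytoplasmic lysate was divided between ribosome profiling and RNA-seq, so the RNA libraries hold cytoplasmic RNA, depleted of ribosomal RNA and cut to fragments of 50 to 60 nt. The labels state neither the sex of the mice, nor the part of Fmr1 that is deleted, nor whether libraries 1 and 2 of a genotype came from separate animals. All p-values therefore measure only the spread between these libraries.

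Fmr1 encodes FMRP, an RNA-binding protein that is abundant in neurons, associates with ribosomes and binds many mRNAs of synaptic proteins. Silencing of the human gene causes fragile X syndrome, the most common inherited form of intellectual disability, and the Fmr1 knockout mouse is its standard model. FMRP is best known as a repressor of translation, and an effect of its loss on the amount of an mRNA is a separate question, which a comparison of RNA levels addresses. A sample of whole cortex mixes excitatory neurons, interneurons, glia and vascular cells.

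Library 1 was the deeper of each genotype, with total counts of 10246479 and 5423919 in WT and 9998712 and 6420233 in the knockout. The 10 most abundant genes took 2.51% to 2.88% of the counts. Levels are given as CPM, counts divided by the library total after TMM scaling, and changes as log2 of knockout over WT with a standard error (SE) from the edgeR quasi-likelihood fit of all 8 RNA libraries. Of 20436 genes listed, 13287 had enough counts to be tested. A gene was called at a Benjamini-Hochberg adjusted p under 0.05. The groups of a gene are said not to overlap when both knockout libraries lay above, or both below, both WT libraries. A change by library number sets knockout library 1 against WT library 1, and 2 against 2.

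Fmr1 itself (NCBI gene 14265, chrX:68678536-68717963, GRCm38) was far lower in the libraries labelled as its knockout. Its RNA level was 109 and 91.3 CPM in WT libraries 1 and 2, and 25.9 and 18.4 CPM in the knockout. It fell by 2.18 ± 0.13 (SE) on the log2 scale (edgeR, adjusted p = 5.64e-05). The knockout libraries still held 258 and 118 Fmr1 counts, against 1088 and 506 in WT, and counts per gene do not show which part of the transcript they come from. The RNA of the double knockout, which lacks the same gene, was at 25.2 and 21.5 CPM, and that of the Cpeb1 knockout at 116 and 87.1 CPM. In footprints from the same lysates, Fmr1 was at 95.7 and 97.3 CPM in WT and at 8.69 and 5.87 CPM in the knockout, a log2 change of -3.75. The plot of CPM by library places these values beside those of its relatives.

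**Figure D1:**
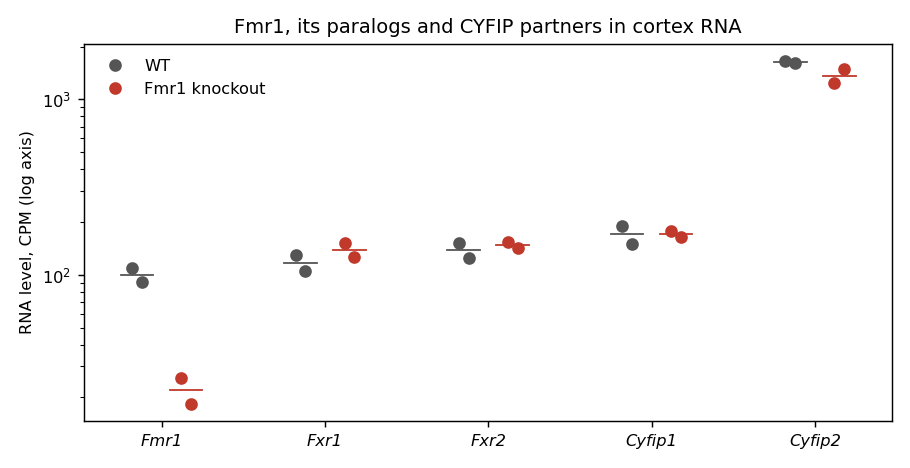
RNA level in CPM (log axis) of Fmr1, its paralogs Fxr1 and Fxr2 and the partners Cyfip1 and Cyfip2, with a point for each of the 2 WT and 2 Fmr1 knockout libraries and a line at each mean. Fmr1 separates the genotypes widely, Cyfip2 was lower in both knockout libraries, and the groups of Fxr1, Fxr2 and Cyfip1 overlap.

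No relative or partner of FMRP other than Fmr1 passed the threshold. The paralog Fxr1 was at 129 and 105 CPM in WT and at 152 and 126 CPM in the knockout, a log2 change of 0.24 ± 0.11. Fxr2, the other paralog, was at 152 and 124 CPM in WT and at 154 and 143 CPM in the knockout. For each paralog 1 knockout library lay within the WT range and 1 above it, so the groups overlapped. The CYFIP proteins link FMRP to the cap-binding factor and to the actin regulator WAVE. Cyfip1 differed by 0.01 ± 0.11, a value whose sign depended on the scaling, and Cyfip2 by -0.27 ± 0.13, with 1653 and 1616 CPM in WT and 1239 and 1486 CPM in the knockout. Pura, which encodes a single-stranded nucleic acid binding protein of dendritic RNA granules, was at 120 and 116 CPM in WT and lower in the knockout, at 80.8 and 86.3 CPM, while its footprints differed by 0.00065 on the log2 scale. Caprin1, a granule protein that binds FMRP, was higher in both knockout libraries (375 and 326 CPM against 318 and 276). Of the 21 tested members of the family and its direct partners, 13 had a log2 change above 0 and 8 below, with a median of 0.04 against 0.02 over all genes tested.

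The genes that surround Fmr1 were read as well. Among the 20 tested genes on each side of Fmr1 along the X chromosome, 9 had groups that did not overlap with the knockout higher and 7 with the knockout lower, shares close to the 22.6% and 18.7% of all genes tested. Their median log2 change was 0.04. At an unadjusted p under 0.05 stood Cd99l2 and Xlr3a, both higher, and Cdr1, lower. Cd99l2, a cell surface protein gene, was at 25.0 and 21.8 CPM in WT and at 29.3 and 31.6 CPM in the knockout. Cdr1 was at 35.8 and 62.4 CPM in WT and at 19.5 and 24.2 CPM in the knockout. Its locus overlaps an abundant circular RNA on the other strand, and since the strand of the counting is not given in the sources used here, the 2 transcripts cannot be told apart. Xlr3a belongs to a family of near-identical copies, so its counts, at most 1.71 CPM in these libraries, are uncertain.

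Across the transcriptome, Fmr1 was the only gene of 13287 that passed the threshold, which is 0.00753% of the genes tested. It passed under each of the 12 alternative analyses, with adjusted p-values from 5.63e-30 to 0.00531 in DESeq2 and edgeR. At an unadjusted p under 0.05 there were 415 genes higher in the knockout (3.12%) and 660 lower (4.97%). The count of called genes changed with the tool and with the libraries and block fitted, for reasons that were not tested. It was 5 in DESeq2 and 401 when only these 4 libraries were fitted with the replicate number as a block, which leaves 1 residual degree of freedom. The same 4 libraries without the block gave 1. The genes next in order of p are therefore described by their values in each library, and none of them is called here.

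The nearest to the threshold was Fabp7, the brain fatty acid binding protein of radial glia and astrocytes. The WT libraries had 22.9 and 20.2 CPM of Fabp7 and the knockout libraries 62.6 and 39.6 CPM, so that both knockout libraries were well above both of WT, a log2 change of 1.24 ± 0.16 (edgeR, adjusted p = 0.0605). Its adjusted p ranged from 1.94e-05 to 1 over the 12 alternatives in edgeR and DESeq2, and 3 of them called it. Fabp7 footprints pointed the other way, with 40.1 and 53.6 CPM in WT and 44.9 and 24.7 CPM in the knockout, although those groups overlapped. Per transcript length, Fabp7 had a mean of 86.5 TPM in WT and 197 TPM in the knockout.

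The other genes named for the smallest p on the higher side had to lie above WT in both knockout libraries, a condition of their choice. Slco1c1, a thyroid hormone transporter of the blood-brain barrier and astrocytes, was at 29.7 and 29.8 CPM in WT and at 54.0 and 49.1 CPM in the knockout (log2 change 0.80 ± 0.15). Aqp4, the water channel of astrocyte endfeet, was at 26.8 and 22.4 CPM in WT and at 38.6 and 35.7 CPM in the knockout (0.59 ± 0.14). Ccng2, an atypical cyclin associated with growth arrest, was at 73.1 and 75.1 CPM in WT and at 124 and 115 CPM in the knockout (0.69 ± 0.12). For these 3 genes the libraries of a genotype lay close together and the genotypes far apart, which their choice by a small p favours. Coq2, an enzyme of ubiquinone synthesis, differed by 0.58 ± 0.12. Scarb2, a lysosomal membrane receptor named for its change in the authors' deposited table, differed by 0.65 ± 0.17. Btaf1, a regulator of the TATA-binding protein, differed by 0.54 ± 0.12. Hspa8, the constitutive cytosolic HSC70 chaperone, was among the most abundant, with 4094 and 3821 CPM in WT and 5468 and 5465 CPM in the knockout (0.47 ± 0.098). Stbd1, a glycogen-binding protein, was at most 12.4 CPM in these libraries and differed by 1.03 ± 0.22.

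Adi1, an enzyme of the methionine salvage pathway, differed in opposite directions in the 2 assays. In RNA, WT had 12.6 and 9.56 CPM of Adi1 and the knockout 21.0 and 19.8 CPM, a log2 change of 0.88 ± 0.19. Its footprints were at 46.8 and 56.8 CPM in WT and at 27.2 and 24.7 CPM in the knockout, a log2 change of -0.9994 ± 0.1221 that passed the threshold in that assay (edgeR, adjusted p = 0.00716), where 0.0581% of 13774 genes did. Neither pair of groups overlapped, which for RNA was a condition of the choice of Adi1. Relative to WT, the knockout was thus higher in RNA and lower in footprints. The RNA change did not pass the threshold (edgeR, adjusted p = 0.526).

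Among genes lower in the knockout, Pdzd2, which encodes a large protein with several PDZ domains, had the smallest p after Fmr1. Pdzd2 was at 137 and 157 CPM in WT and at 78.9 and 96.4 CPM in the knockout (log2 change -0.75 ± 0.12). Bai2 (Adgrb2 in RefSeq), an adhesion G protein-coupled receptor of neurons, was at 657 and 617 CPM in WT and at 406 and 449 CPM in the knockout (-0.58 ± 0.11). Hrh3, the histamine autoreceptor of the brain, was at 60.4 and 73.3 CPM in WT and at 41.3 and 50.0 CPM in the knockout (-0.55 ± 0.12). Genes named here for the smallest p had to have both knockout libraries below both of WT, so that separation is a condition of their choice. Arhgap33, a synaptic sorting and GTPase-activating protein, differed by -0.57 ± 0.13, Begain, a binding partner of PSD-95, by -0.52 ± 0.12, and Sipa1l3, a Rap GTPase-activating protein, by -0.72 ± 0.15. The zinc finger cofactor gene Zfpm1 differed by -0.89 ± 0.18, and Tnnc1, a troponin C gene at 16.7 and 17.0 CPM in WT and 7.93 and 9.04 CPM in the knockout, by -1.01 ± 0.21.

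The authors' deposited table of this comparison lists 50 genes at an adjusted p under 0.05, which is 0.92% of the 5434 genes that have one there. By the authors' deposited table, the knockout is higher for 10 of them (0.184%) and lower for 40 (0.736%). The largest decreases in the authors' deposited table after Fmr1, among genes with a regular symbol, were those of Pdzd2 (log2 -0.53), Prr12 (-0.53), Dlgap3 (-0.49) and Wnk2 (-0.49). Its largest increases belong to Slco1c1 (0.49), Ccng2 (0.49), Pdia6 (0.43), Scarb2 (0.42) and Coq2 (0.41), by the authors' deposited table. For the genes named, these deposited changes are smaller than those of the fit used here, for Fmr1 -1.45 against -2.18. The reason was not tested, and the ranking holds for the authors' deposited table only. In the CPM values all 40 lower and all 10 higher genes of the authors' deposited table had groups that did not overlap, in the same direction, which is no independent evidence because both rest on the same 4 libraries. Prr12, a nuclear protein gene mutated in neurodevelopmental disorders, was at 136 and 130 CPM in WT and at 72.1 and 74.5 CPM in the knockout. Wnk2, a kinase that regulates ion cotransporters, was at 321 and 288 CPM in WT and at 169 and 201 CPM in the knockout.

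Footprints of the same lysates give a separate readout for these 50 genes. Of the 40 that are lower in the authors' deposited table, 24 had a footprint change above 0, none of them at an unadjusted p under 0.05, and 3 were lower at that level, Fmr1 among them. Over all genes tested in footprints, 51.4% had a change above 0, 2.4% were higher and 2.69% lower at an unadjusted p under 0.05. Of the 10 that are higher in the authors' deposited table, 9 also had a footprint change above 0, and 1, Calr, had an unadjusted p under 0.05. The median footprint change was 0.02 for the lower genes and 0.17 for the higher ones. In the RNA fit used here, the median change of the lower genes was -0.575 in the Fmr1 knockout. It was -0.586 in the Cpeb1 and 0.02 in the double knockout, against the same WT libraries. For the higher genes these medians were 0.56, 0.52 and 0.15, in the same order. In the scatter of RNA against footprint changes, the lower genes form a cloud around a footprint change of 0, and the higher ones lie mostly in the upper right quadrant.

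**Figure D2:**
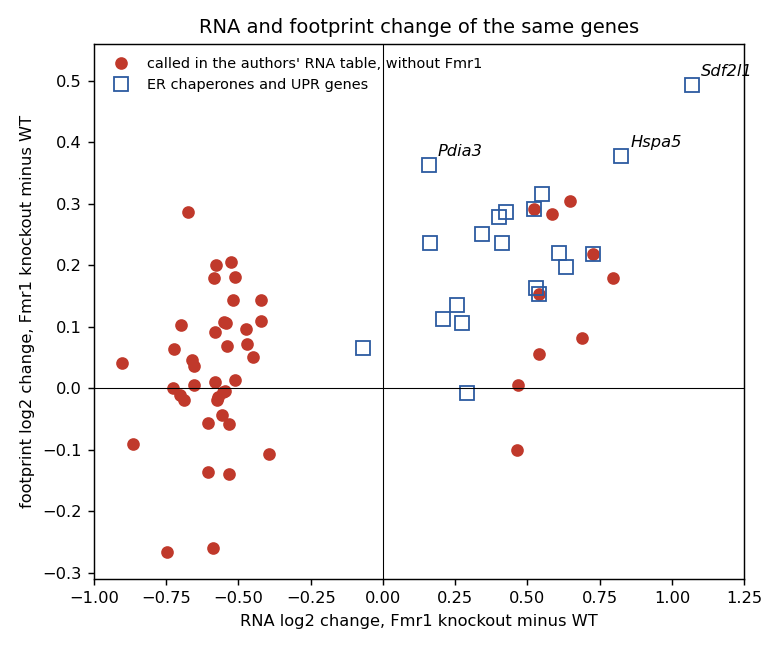
Log2 change of footprints (y axis) against log2 change of RNA (x axis), Fmr1 knockout minus WT, for the genes called in the authors' deposited RNA table except Fmr1 (filled points) and for 20 genes of the endoplasmic reticulum chaperone and unfolded protein response list (open squares). Of the 20 open squares, 19 have a footprint change above 0. So do 24 of the 40 genes with lower RNA, a total that includes Fmr1, which is not plotted.

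The scaffold proteins of the postsynaptic density hold glutamate receptors in the spine and tie them to actin and to signalling enzymes, and several of their mRNAs are known FMRP targets. In the knockout most of these mRNAs were at lower levels. Of 19 tested scaffold genes, 13 had groups that did not overlap with the knockout lower (18.7% of all genes did) and 2 with the knockout higher (22.6% of all genes). At an unadjusted p under 0.05 there were 10 lower and 0 higher, beside a background of 4.97% and 3.12%. Their median log2 change was -0.34, against 0.02 over all genes tested, and it was -0.41 in library number 1 and -0.32 in number 2. No scaffold gene passed the adjusted threshold of the all-library fit.

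The 3 Shank genes, which encode the master scaffolds of the density, were all lower in both knockout libraries. Shank1 was at 696 and 559 CPM in WT and at 232 and 360 CPM in the knockout, a log2 change of -1.11 ± 0.32. Shank3, the gene of Phelan-McDermid syndrome, was at 194 and 179 CPM in WT and at 84.5 and 131 CPM in the knockout (-0.81 ± 0.27). Shank2 was at 142 and 155 CPM in WT and at 88.9 and 108 CPM in the knockout (-0.60 ± 0.20). Knockout library 1 was the lowest of the 4 for each Shank gene. Shank1 therefore differed by -1.58 in library number 1 and by -0.63 in number 2.

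The proteins that connect Shank to PSD-95 followed the same direction. Dlgap3, the SAPAP3 linker, was at 311 and 284 CPM in WT and at 163 and 206 CPM in the knockout (log2 change -0.70 ± 0.18), and its homolog Dlgap1 differed by -0.32 ± 0.14. Dlg4, which encodes PSD-95 itself, was at 652 and 785 CPM in WT and at 492 and 588 CPM in the knockout (-0.41 ± 0.13). All of these had knockout libraries below both WT libraries. Agap2, an Arf GTPase-activating protein, differed by -0.55 ± 0.13, Iqsec2, an exchange factor for Arf6, by -0.59 ± 0.18, and the adaptor Sorbs2 by -0.60 ± 0.17. The members that were not lower included Homer1, which links metabotropic receptors to Shank and was higher in both knockout libraries (289 and 270 CPM against 211 and 261), and Baiap2, at 304 and 304 CPM against 293 and 284 in WT.

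**Figure D3:**
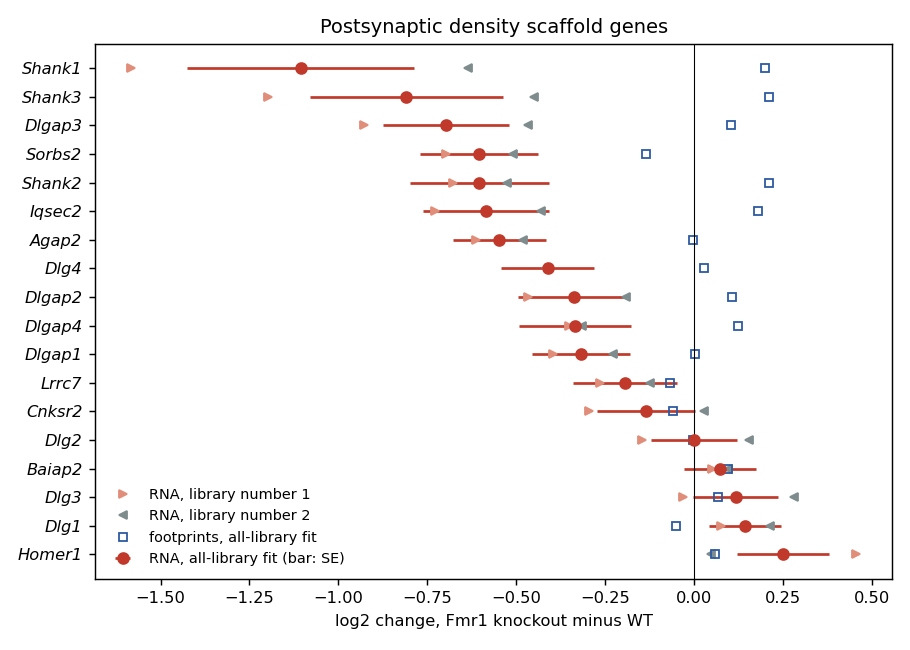
Log2 change, Fmr1 knockout minus WT, of 18 of the 19 postsynaptic density scaffold genes: RNA in the fit of all libraries (circles, bars are 1 SE), RNA in each library number (triangles) and footprints (open squares). The RNA change lies below 0 for 13 of the 18 genes shown, while the footprint change of 12 of the 18 lies above 0.

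The footprints of these scaffold genes did not show the lower level of their RNA. Of the 19, 12 had a footprint change above 0 and 7 below, with a median of 0.06. Shank1 footprints were at 48.8 and 46.7 CPM in WT and at 51.9 and 58.3 CPM in the knockout, both above the WT values while its RNA was below. The median coding length of the list was 3096 nt, longer than the 1434 nt of all genes tested, and with a correction for length the median RNA change of the list was -0.29.

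The RNA of excitatory cortical neuron markers was lower alongside that of the scaffold genes. Of the 14 markers tested, 8 had groups that did not overlap with the knockout lower (18.7% of all genes) and 0 with it higher (22.6%), 7 were lower at an unadjusted p under 0.05 (4.97%), and the median log2 change was -0.29. Their summed level was 3838 and 3323 CPM in WT and 3107 and 2812 CPM in the knockout, so the groups did not overlap. In footprints 7 of the 14 had a change above 0 and 7 below, with a median of 0.01. RNA of the Cpeb1 knockout had a marker median of -0.31 against the same WT libraries. That of the double knockout was -0.04, so the lower median was not particular to loss of Fmr1, nor shared by both genotypes that lack it. Nrgn, the calmodulin-binding protein neurogranin, was at 201 and 201 CPM in WT and at 131 and 148 CPM in the knockout (log2 change -0.53 ± 0.13), and Cux2, a transcription factor of upper layers, differed by -0.69 ± 0.21. Slc17a7, the vesicular glutamate transporter that defines these neurons, was at 1461 and 1461 CPM in WT and at 1357 and 1300 CPM in the knockout (-0.14 ± 0.11). In tissue RNA, fewer cells of a type and less RNA per cell cannot be told apart, and the part of this marker difference in the scaffold result was not tested. Interneuron markers had a median of 0.04, with summed levels of 2176 and 2217 CPM in WT and 2167 and 2295 CPM in the knockout.

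The glutamate receptor lists had medians closer to 0 than the scaffold list. Of 17 ionotropic glutamate receptor subunits, 6 had groups that did not overlap with the knockout lower and 2 with it higher, while over all genes, 18.7% were lower and 22.6% higher without overlap. The list median of -0.10 lay between -0.04 and -0.14 with 1 library left out. The kainate receptor subunit genes Grik5 and Grik4 had the smallest p, with Grik5 at 278 and 328 CPM in WT and at 182 and 260 CPM in the knockout (log2 change -0.47 ± 0.12) and Grik4 differing by -0.47 ± 0.14. The NMDA receptor subunit gene Grin2a differed by -0.32 ± 0.12, whereas Gria2, the AMPA receptor subunit that limits calcium entry, was at 918 and 819 CPM in WT and somewhat higher, at 1016 and 968 CPM, in the knockout. The group I metabotropic receptor Grm5, whose signalling is central to models of fragile X syndrome, was at 418 and 409 CPM in WT and at 418 and 452 CPM in the knockout, a log2 change of 0.07 ± 0.10. Grm2, a presynaptic autoreceptor, differed by -0.26 ± 0.16. The list of these metabotropic receptors with Homer and Gq-coupled partners had 3 members higher and 1 lower without overlap out of 11, of which the higher share is near the 22.6% of all genes. Its median of 0.03 lay between -0.13 and 0.10 with 1 library left out.

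Inhibitory receptor genes had a log2 change above 0 in 10 of 12 cases (54.1% of all genes). None of the 12 GABA-A receptor subunits had groups that did not overlap with the knockout lower and 3 were higher without overlap, near the 22.6% of all genes. The median was 0.07, and 0.0016 without WT library 1.

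Voltage-gated channels were mostly on the lower side. Of 34 potassium channel genes 14 were lower without overlap and 3 higher, and of 25 sodium and calcium channel genes 11 were lower and 3 higher, with medians of -0.13 and -0.15. For comparison, over all genes, 18.7% were lower and 22.6% higher without overlap. With 1 library left out, the first median lay between -0.07 and -0.21 and the second between -0.08 and -0.25. Kcnc1, which encodes a fast Kv3 channel of fast-spiking cells, was at 114 and 129 CPM in WT and at 74.4 and 94.1 CPM in the knockout (log2 change -0.54 ± 0.14). Among calcium channels the auxiliary subunit Cacnb3 was at 148 and 176 CPM in WT and at 107 and 137 CPM in the knockout (-0.42 ± 0.14), and the T-type channel Cacna1i differed by -0.46 ± 0.16. The sodium channel subunit Scn2b was higher in both knockout libraries (104 and 92.5 CPM against 89.2 and 79.4). The footprint medians of both channel lists were above 0, at 0.07 and 0.08.

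On the presynaptic side, 15 of 29 vesicle and release genes were lower without overlap (18.7% of all genes) and 2 higher (22.6%), with a median of -0.13 that lay between -0.06 and -0.19 with 1 library left out. Bsn, the giant active zone scaffold bassoon, was at 1405 and 982 CPM in WT and at 728 and 777 CPM in the knockout (log2 change -0.65 ± 0.21), so that its 2 WT libraries themselves differed widely. Vamp1, a vesicle SNARE, differed by -0.48 ± 0.18. Dagla, the enzyme that makes the endocannabinoid 2-arachidonoylglycerol, was at 120 and 126 CPM in WT and at 78.8 and 94.1 CPM in the knockout (-0.51 ± 0.13), while the 8 genes of endocannabinoid signalling as a list had 2 higher and 1 lower without overlap, near the shares of all genes.

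The mRNAs reported to be bound by FMRP, which encode large synaptic, cytoskeletal and chromatin proteins, were listed from general knowledge rather than from the study. Of 98 tested, 83 had a log2 change below 0 (45.9% of all genes) and 44 were lower without overlap (18.7% of all genes), with 3 higher (22.6%). At an unadjusted p under 0.05 there were 19 lower and 0 higher. The list's median was -0.14, but it was -0.30 in library number 1 and -0.02 in number 2. It was -0.02 without WT library 1, -0.26 without WT library 2, -0.08 without knockout library 1 and -0.23 without knockout library 2. Their summed level was 81580 and 70270 CPM in WT and 66590 and 69830 CPM in the knockout. WT library 1 stood above the other libraries. Set against the same WT libraries, RNA of the Cpeb1 knockout gave this list a median of -0.147, with Fmr1 itself near its WT level. RNA of the double knockout, which lacks Fmr1 as well, gave a median of 0.007. The part of FMRP loss in the lower median of the list was not tested. In footprints 66 of the 98 had a change above 0 (51.4% of all genes), with a median of 0.05. Without overlap, 22 were higher in footprints (15.6% of all genes) and 11 lower (15.1%). Nrxn2, a presynaptic adhesion molecule, was at 517 and 545 CPM in WT and at 386 and 408 CPM in the knockout, a log2 change of -0.42 ± 0.10, and Nlgn2, the neuroligin of inhibitory synapses, was at 243 and 293 CPM in WT and at 166 and 203 CPM in the knockout (-0.54 ± 0.13). Both genes differed by nearly the same amount in library number 1 and in number 2. Chromatin regulators, many of which FMRP also binds, had 20 of 42 lower (18.7% of all genes) and 2 higher (22.6%) without overlap, with a median of -0.18 that lay between -0.08 and -0.28 with 1 library left out. The histone methyltransferase gene Kmt2d was at 605 and 553 CPM in WT and at 315 and 414 CPM in the knockout (-0.68 ± 0.23). In footprints 23 of the 42 chromatin regulators had a change above 0, near the share of all genes, with a median of 0.02.

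Coding length moved with the RNA change. The FMRP-bound list had a median coding length of 4780 nt and the chromatin list 5760 nt. In 5 bins of tested genes by length, the median log2 change went from 0.13 in the shortest (median 558 nt) through 0.06, 0.02 and -0.01 to -0.08 in the longest (3566 nt). In library number 1 the medians ran from 0.20 to -0.16, and in library number 2 from 0.03 to 0.01. Footprints showed medians between -0.01 and 0.01 in all 5 bins. In RNA of the Cpeb1 knockout against the same WT libraries, the medians ran from 0.12 in the shortest bin to -0.07 in the longest. In the double knockout the medians of those bins were -0.002 and -0.01. Of the 40 genes that the authors' deposited table gives as lower, 27 are in the longest bin and 1 in the shortest. With a correction for length the median of the FMRP-bound list was -0.04 and that of the chromatin list -0.06, against -0.29 for the scaffold list. The part of length, or of the library in which it varies, in the single gene differences was not tested.

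**Figure D4:**
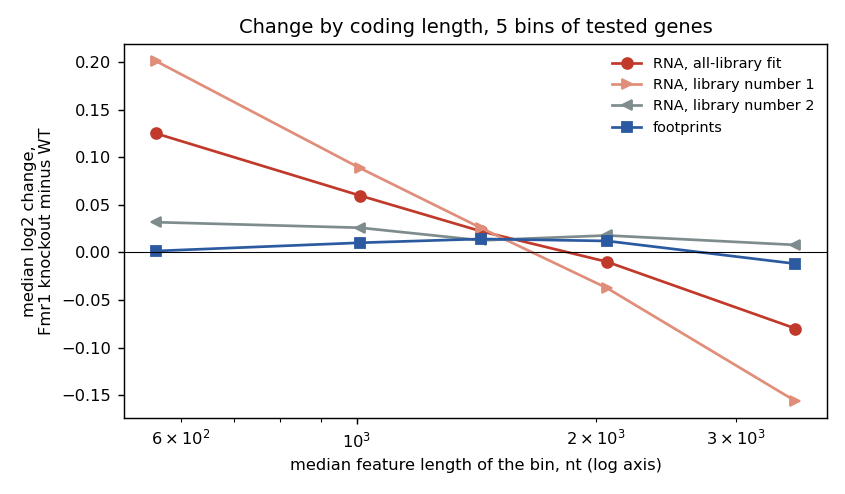
Median log2 change, Fmr1 knockout minus WT, in 5 bins of tested genes ordered by coding length (x axis, median length of the bin in nt, log axis), for RNA in the fit of all libraries, RNA in each library number, and footprints. RNA declines with length from 0.13 to -0.08, steeply in library number 1, while library number 2 and footprints stay within 0.05 of 0.

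The shortest coding sequences include those of ribosomal proteins, and their mRNAs were higher in the knockout as a block. All 79 cytosolic ribosomal protein genes had a log2 change above 0 (54.1% of all genes did), 66 were higher without overlap and 0 lower, and 42 had an unadjusted p under 0.05, beside a background of 3.12%. The median was 0.34, or 0.55 in library number 1 and 0.12 in number 2, and 0.24 with a correction for length. Without knockout library 1 the median was 0.18, without WT library 1 0.20. Their summed level was 11680 and 13810 CPM in WT and 16860 and 15090 CPM in the knockout. Rpl5, a large-subunit protein that binds the small ribosomal RNA of that subunit, was at 268 and 278 CPM in WT and at 403 and 353 CPM in the knockout (log2 change 0.46 ± 0.11). Rps23, at the decoding centre of the small subunit, was at 19.01 and 18.58 CPM in WT and at 33.0 and 22.9 CPM in the knockout (0.58 ± 0.16). Ribosomal protein genes have many processed pseudogenes, so their counts depend on how the authors placed shared reads. In footprints 56 of 78 were lower and 22 higher, with a median of -0.04.

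Other housekeeping machinery, most of it with short coding sequences, shared the direction at smaller size. For comparison, 22.6% of all genes and 34.5% of those in the shortest length bin were higher without overlap. Of 76 nuclear-encoded respiratory chain subunits, 51 were higher without overlap and 0 lower (median 0.19, or 0.10 with the length correction). Among 76 mitochondrial ribosomal protein genes 37 were higher and 2 lower (0.18, or 0.09 corrected), and among 31 proteasome subunits 19 were higher and 0 lower (0.16, or 0.11 corrected). Translation factors had 19 of 46 higher and 4 lower without overlap, with a median of 0.14, or 0.137 corrected. Their median coding length was 1299 nt, near the 1434 nt of all genes tested. Without knockout library 1 the median was 0.12 for respiratory chain subunits, 0.09 for mitochondrial ribosomal proteins and 0.08 for translation factors. Eef1a1, which delivers aminoacyl-tRNA to the ribosome, was at 2080 and 2397 CPM in WT and at 2809 and 2714 CPM in the knockout (log2 change 0.31 ± 0.11), and Eef1g, of the same elongation complex, differed by 0.31 ± 0.12. The footprint medians of these 4 lists lay between -0.01 and 0.03.

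Chaperones of the endoplasmic reticulum (ER) were on the higher side in both RNA and footprints. These proteins fold secretory and membrane proteins, and their genes are induced together by the unfolded protein response, in which ATF6, XBP1 and the ubiquitous factor NF-Y act on the ER stress element in their promoters. The list of 20 such genes was drawn up after the data had been seen, because Hsp90b1, Pdia6 and Calr appear in the authors' deposited table, so its counts only describe it. Of the 20, 17 were higher without overlap in RNA (22.6% of all genes) and 1 lower (18.7%), 12 were higher at an unadjusted p under 0.05 (3.12%), and the median was 0.42. In footprints 19 of 20 had a change above 0, 9 were higher without overlap (15.6% of all genes) and 0 lower, and the median was 0.23.

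Hspa5, the master ER chaperone BiP, was at 212 and 251 CPM in WT and at 487 and 347 CPM in the knockout, a log2 change of 0.82 ± 0.22. Hsp90b1, the ER form of HSP90, was at 346 and 305 CPM in WT and at 545 and 409 CPM in the knockout (0.54 ± 0.13). Calr, the lectin chaperone calreticulin, was at 230 and 217 CPM in WT and at 355 and 289 CPM in the knockout (0.52 ± 0.14). In all of these, knockout library 1 was the highest of the 4. Sdf2l1, a cofactor of BiP, was at 6.40 and 7.40 CPM in WT and at 17.3 and 11.1 CPM in the knockout (1.07 ± 0.30), and the disulfide isomerase genes Pdia6 and Pdia4 differed by 0.73 ± 0.22 and 0.55 ± 0.17. The list's median was 0.64 in library number 1 and 0.23 in number 2, and 0.27 without knockout library 1, 0.24 without WT library 1. Hspa5 footprints were at 374 and 481 CPM in WT and at 687 and 463 CPM in the knockout, so those groups overlapped. Among the transcription factors of the response, Xbp1 differed by 0.42 ± 0.20, Ddit3 by 0.53 ± 0.23 and Atf4 by 0.27 ± 0.11, while Atf6 differed by -0.07 ± 0.11. Pdia3, a disulfide isomerase, differed little in RNA (0.16 ± 0.14) and more in footprints (0.36).

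Several of the members that were higher carry the ER stress element, CCAAT and CCACG with 9 bases of any kind between them. It was searched on both strands in the RefSeq promoters (GRCm38.p6, from 250 bases before to 50 after the start). It was found in 7 of the 17 ER genes that have a promoter in that table (41.2%). Of the cytosolic chaperone genes with a promoter there, 0 of 18 held it. A gene counted if any of its promoters matched, whereas all 32851 promoters were counted singly, with 39 matches (0.119%). ER chaperone genes are known for this element, so the shares describe the list and are no evidence on the RNA change. The elements of Hspa5, Hsp90b1, Calr and Pdia6, the genes with the clearest RNA difference among those that hold it, are shown with 10 bases on each side and the 2 fixed parts of the element in capitals:
Hspa5 (chr2:34772015-34772053, plus strand): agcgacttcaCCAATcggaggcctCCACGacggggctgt
Hsp90b1 (chr10:86705628-86705666, minus strand): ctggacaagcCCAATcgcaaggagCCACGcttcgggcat
Calr (chr8:84847065-84847103, plus strand): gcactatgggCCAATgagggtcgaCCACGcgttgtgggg
Pdia6 (chr12:17266481-17266519, plus strand): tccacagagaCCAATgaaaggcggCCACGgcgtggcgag
The element reads in the direction of the gene in Hspa5, Hsp90b1 and Pdia6, ending 46, 193 and 79 bases before the start, and on the opposite strand in Calr. Canx, Creld2 and Dnajc3 hold it as well. A match describes the sequence and does not show that a factor was bound. Sdf2l1 and Pdia4 were higher too and are not among the 7.

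Cytosolic chaperones, a second list drawn up after the data had been seen, were on the higher side in RNA. Of 22, 14 were higher without overlap (22.6% of all genes) and 1 lower (18.7%), with a median of 0.26 in the fit and also in each library number, whereas the footprint median was 0.01. Hspa8 is the example with the smallest p. Its footprints were at 8853 and 8812 CPM in WT and at 9805 and 8011 CPM in the knockout, a log2 change of 0.0046.

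Of 18 circadian clock genes tested, 8 were lower without overlap (18.7% of all genes) and 3 higher (22.6%), and 6 were lower at an unadjusted p under 0.05 (4.97%), none of which passed the adjusted threshold. The median of -0.16 was -0.11 without knockout library 1 and -0.29 without knockout library 2. Dbp, a transcription factor driven directly by the clock, was at 76.4 and 70.9 CPM in WT and at 45.6 and 54.1 CPM in the knockout (log2 change -0.58 ± 0.13). Per3 was at 50.8 and 65.1 CPM in WT and at 34.4 and 46.0 CPM in the knockout (-0.53 ± 0.17), and Nr1d1, the repressor REV-ERB alpha, was at 171 and 186 CPM in WT and at 129 and 144 CPM in the knockout (-0.39 ± 0.12). The related factor Hlf differed by -0.49 ± 0.16 and the repressor Bhlhe41 by -0.67 ± 0.22. Nfil3, which acts against Dbp on the same sites, was on the other side at 14.5 and 12.8 CPM in WT and 19.1 and 17.8 CPM in the knockout (0.43 ± 0.18), as was Arntl, the activator BMAL1 (0.22 ± 0.13). In footprints 14 of the 18 clock genes had a change above 0 (51.4% of all genes), with a median of 0.10. The hour of dissection is not given in the labels.

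Immediate-early genes, which neuronal activity induces within minutes, had medians of opposite sign in the 2 library numbers, -0.18 in number 1 and 0.60 in number 2. Of 30 tested, 9 were higher (22.6% of all genes) and 1 lower (18.7%) without overlap. Arc, a regulator of AMPA receptor endocytosis and a known FMRP target, was at 161 and 51.8 CPM in WT and at 111 and 197 CPM in the knockout, so that its highest and lowest values were both from libraries numbered 2. Fos was at 35.4 and 23.5 CPM in WT and at 29.4 and 54.7 CPM in the knockout, and Npas4 at 19.01 and 14.43 CPM in WT and at 12.3 and 26.8 CPM in the knockout. The groups of all 3 overlapped. Higher in both knockout libraries were Fosl2, at 17.7 and 15.3 CPM in WT and 25.5 and 25.1 CPM in the knockout (log2 change 0.61 ± 0.16), and Gadd45b, at 6.60 and 2.89 CPM in WT and 9.63 and 9.97 CPM in the knockout (0.96 ± 0.30). The list's median of 0.25 was -0.15 without knockout library 2, 0.44 without knockout library 1, 0.50 without WT library 1 and 0.09 without WT library 2. Glucocorticoid and stress responsive genes had 7 of 17 higher (22.6% of all genes) and 1 lower (18.7%) without overlap. Their median was 0.27, and 0.16 without WT library 1. The list holds Hspa8, Hspa5, Ddit3 and Atf4, described above as higher, so it does not describe glucocorticoid targets alone. Of those targets, Fkbp5 differed by -0.05 ± 0.21 and Sgk1 by -0.31 ± 0.15, both with groups that overlapped.

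Signalling lists that figure in models of fragile X syndrome had medians near 0. Among 31 genes of mTOR and MAPK signalling 9 were lower and 5 higher without overlap (median -0.07), and among 21 genes of the cAMP pathway 6 were lower and 1 higher (-0.03), while over all genes, 18.7% were lower and 22.6% higher without overlap. With 1 library left out, the first median lay between -0.02 and -0.08 and the second between -0.09 and 0.04. Gsk3a, a kinase downstream of insulin signalling, was at 168 and 193 CPM in WT and at 129 and 145 CPM in the knockout (log2 change -0.40 ± 0.12). Tubulins and microtubule-associated proteins had 8 of 28 higher and 6 lower without overlap, near the shares of all genes. The plot of list medians sets all of these side by side.

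**Figure D5:**
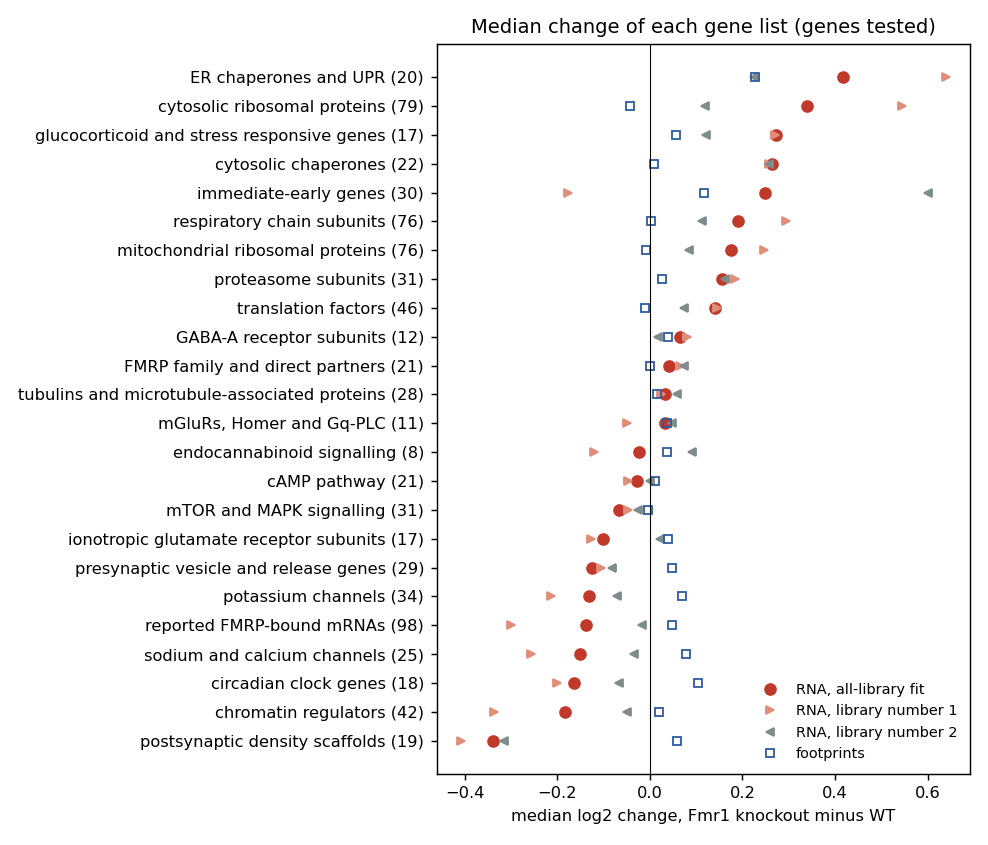
Median log2 change, Fmr1 knockout minus WT, of each pathway list (number of genes tested in parentheses): RNA in the fit of all libraries (circles), RNA in each library number (triangles) and footprints (open squares). RNA medians run from -0.34 for postsynaptic density scaffolds to 0.42 for ER chaperones, and footprint medians lie between -0.04 and 0.12 except for ER chaperones at 0.23.

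Markers of glia and of neighbouring tissue were examined in the same libraries. Of 16 astrocyte markers, 6 were higher (22.6% of all genes) and 1 lower (18.7%) without overlap. Their median of 0.15 was 0.04 without knockout library 2 and 0.25 without knockout library 1, and their summed level was 2382 and 2174 CPM in WT and 2213 and 2725 CPM in the knockout, which overlap. S100b, a calcium-binding protein of astrocytes, was at 9.70 and 12.6 CPM in WT and at 17.1 and 18.7 CPM in the knockout, whereas Sox9, a transcription factor of the same cells, was at 8.20 and 9.20 CPM in WT and at 2.91 and 5.45 CPM in the knockout. Beside the differences of Fabp7, Slco1c1 and Aqp4, the astrocyte list thus held members on both sides, and its part in those differences was not tested. Microglial markers had 8 of 15 higher (22.6%) and 1 lower (18.7%) without overlap, with a median of 0.42 at low levels (summed, 87.4 and 101 CPM in WT and 117 and 126 CPM in the knockout), and 0 were at an unadjusted p under 0.05. Without WT library 1 the microglial median was 0.09. Csf1r, the receptor on which microglia depend, was at 10.7 and 13.2 CPM in WT and at 15.5 and 19.5 CPM in the knockout, and the cathepsin gene Ctss at 7.50 and 5.41 CPM in WT and 10.3 and 11.5 CPM in the knockout.

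Oligodendrocyte markers were lower mainly in footprints. In RNA 2 of 17 were lower without overlap (18.7% of all genes) and 0 higher (22.6%), with a median of -0.10 that was -0.31 without WT library 1 and 0.05 without WT library 2. In footprints 11 of 17 were lower without overlap (15.1% of all genes) and 0 higher, with a median of -0.30. Sox10, the transcription factor of the lineage, was at 18.1 and 23.8 CPM of RNA in WT and at 8.83 and 13.9 CPM in the knockout (log2 change -0.90 ± 0.25). Mog, a protein of the outer myelin sheath, was at 41.6 and 73.4 CPM in WT and at 39.7 and 47.1 CPM in the knockout. WT library 2 was the highest of the 4 for Mog, as it was in the summed choroid plexus and ependyma markers, where it reached 278 CPM against 74.9 CPM in WT library 1 and 143 and 120 CPM in the knockout. Olfactory bulb markers summed to 54.0 and 26.0 CPM in WT and 78.8 and 43.0 CPM in the knockout, and hippocampal markers to 204 and 212 CPM in WT and 172 and 171 CPM in the knockout. All markers that were tested had at least 1 count in each of the 4 libraries.

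The Cpeb1 and the double knockout show which of these levels are shared beyond WT. Against the Cpeb1 knockout, Fmr1 was the only gene called in the Fmr1 knockout (0.00753% of the genes tested). Against the double knockout 0 genes (0%) were called in edgeR, with 2087 at an unadjusted p under 0.05 and 33 called in DESeq2, and leaving out library 2 of the double knockout gave 193. Shank1 was at 196 and 383 CPM in the Cpeb1 knockout, near the 232 and 360 CPM of the Fmr1 knockout, and at 858 and 505 CPM in the double knockout, which overlaps the 696 and 559 CPM of WT. Dlgap3 was at 158 and 209 CPM in the Cpeb1 knockout and at 374 and 280 CPM in the double knockout. Dbp was at 42.6 and 50.0 CPM in the Cpeb1 knockout and at 84.1 and 85.7 CPM in the double knockout. Hspa5 was at 503 and 280 CPM in the Cpeb1 knockout and at 230 and 247 CPM in the double knockout. For each of these genes the Fmr1 knockout libraries overlapped or adjoined those of the Cpeb1 knockout, and both lay apart from the double knockout. Other named genes differed from this. In the Cpeb1 knockout Tnnc1 was at 13.6 and 21.9 CPM (16.7 and 17.0 in WT) and Fosl2 at 16.2 and 16.9 CPM (17.7 and 15.3 in WT). Pdzd2 in the double knockout was at 113 and 115 CPM, below its 137 and 157 CPM in WT. Fmr1 minus double knockout was -1.24 on the log2 scale for Shank1 and -0.84 for Dlgap3, and neither passed the threshold in that fit (edgeR, adjusted p = 0.206 for both). The list medians against WT, which share the WT libraries, were -0.34 in the Fmr1, -0.46 in the Cpeb1 and 0.02 in the double knockout for scaffolds, and 0.34, 0.30 and 0.04 for ribosomal proteins. For the ER chaperones they were 0.42, 0.44 and 0.02.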

How the data were processed

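Per the file headers, each deposited gene table has RSEM's format, with estimated counts per gene, TPM (scaled by the authors to feature length and library) and feature lengths. The submitters' processing notes name cutadapt, Bowtie2, TopHat2, RSEM, DESeq2 and build mm10, without versions. Of 15716 genes listed with a single transcript, 99.6% have a feature length that is a multiple of 3, so counts appear to cover coding sequence. The authors' deposited table of WT and Fmr1 knockout RNA holds adjusted p-values and log2 changes, whose sign was turned to knockout minus WT.

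Expected counts were rounded to whole numbers and tested in R 4.3.3 with edgeR 4.0.16 (TMM scaling, filterByExpr with a minimum count of 10, quasi-likelihood test, Benjamini-Hochberg adjustment), on all 8 RNA libraries with the replicate number as a block. Footprint libraries were fitted likewise. The SE is the size of the log2 change divided by the square root of F. Changes by library number used log2 CPM with a prior count of 2. TPM served only to set a level per length. Named genes were those of fixed lists, those called, and those with the smallest p in each direction or list with at least 50 mean counts and groups that do not overlap, or with the largest change in the authors' deposited table, and some further list members were named after their values were seen. The comparison, its members and the lists were chosen with earlier results of these data known. Alternatives were no block, only the libraries compared, DESeq2 size factors, DESeq2, other count filters, a length correction and each library left out. The fits were tested on simulated data. Some genes of the lists count in list totals and are not reported here by name.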

Additional observations from a re-analysis of the deposited data

How the results depend on the processing

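The Fmr1 call held under all 12 alternatives. The number of called genes was 1, and became 5 in DESeq2 (Fmr1, Fabp7, Pdzd2, Ccng2 and Bai2), 3 without a filter (Fmr1, Fabp7 and Rec8) and 401 (77 higher, 324 lower) with only the 4 libraries and the block. Rec8 and Pcdha6-g, the latter called without knockout library 1, were named after their values were seen. Leaving out each library gave 1 to 2 calls. In footprints 8 calls became 43 with only the 4 libraries, 15 in DESeq2 and 16 without a filter, and ran from 5 to 46 over the left-out libraries. Against the Cpeb1 knockout 1 call became 0 with only the 4 libraries and no block, with 1 to 5 over the left-out libraries. Against the double knockout 0 calls became 166 with only the 4 libraries, 33 in DESeq2 and 2 without a filter, and ran from 0 to 193. Fitted without the block, the 4 libraries of each comparison gave 1 call in RNA, 8 in footprints and 0 against the double knockout. The causes were not tested. The share of lower genes among those at an unadjusted p under 0.05 was 61.4%, 75.7% in DESeq2, 74.6% with at least 10 counts in every library and 51.8% with the length correction.

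Without the replicate block 1 gene was called in RNA, 6 in footprints, 1 against the Cpeb1 and 0 against the double knockout. Same-numbered WT and Fmr1 knockout libraries deviated together across genes with r = 0.205, but r was -0.0446 to 0.293 over all pairs of genotypes, so the numbers are not shown to pair the samples. The labels do not state that a number marks a batch. The block and the changes by library number are choices of the re-analysis.

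The sign of Cyfip1 reversed to -0.0016 with only the 4 libraries, -0.00805 without the block as well, -0.00168 with DESeq2 size factors, -0.00175 in DESeq2, -0.00828 without a filter and -0.0158 with the stricter one. With single libraries left out, Cyfip1 ran from -0.071 to 0.102, Arc from -0.26 to 1.53, Fos from -0.173 to 1.09, Npas4 from -0.579 to 0.833, Pdia3 from -0.0935 to 0.422 and Per1 from -0.417 to 0.129. Only 2 libraries a genotype and 5423919 counts in the shallowest limit what could be called.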
